A study of Sus scrofa with 22 samples.

Results

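Midkine (MDK) and pleiotrophin (PTN) are the only members of a small family of secreted, heparin-binding growth factors, and their transcript signals were followed here over 4 ages of pig muscle development. All probe sets that the array annotation assigned to the single symbol MDK or PTN were taken, which gave 4 of 23999 probe sets and 2 of 6765 named genes. Each gene had 2 probe sets. The pair was chosen for its course over these ages, so the levels and differences of MDK and PTN are given as a description, with standard errors and without tests.

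Both proteins are small, basic and rich in cysteine, and they bind the sulfated chains of proteoglycans on cells and in the matrix. Midkine was first found as a gene that retinoic acid switches on in mouse embryonal carcinoma cells, and pleiotrophin as a protein of developing rat brain that promotes the outgrowth of neurites. Their known binding partners include the receptor phosphatase PTPRZ1, the receptor kinase ALK, syndecans, integrins and receptors of the low-density lipoprotein receptor family, and both genes are known as more active in embryos than in most adult tissues.

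The animals were offspring of German Landrace gilts, and all of their dams had eaten an adequate protein diet during gestation. They were sampled at 94 days after conception (94 dpc, 6 arrays), at 1 day after birth (1 dpn, 6 arrays), at 28 days after birth (28 dpn, 6 arrays) and at 188 days after birth (188 dpn, 4 arrays). Every group shares the breed and the diet, so age is the only labelled difference between them. Offspring of 3 gilts were taken at each age, and which piglets were littermates is not given in the labels. P-values over animals are therefore too small where littermates resemble one another, and they measure the spread between these samples.

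The sample labels name liver and the series title names muscle. Of the 30 brightest named genes, 5 were in a list of skeletal muscle markers and 0 in a list of liver markers, and the myosin light chain MYL1 was the brightest gene. The summed signal of 8 measured muscle markers ran between 223389 and 624101 over the 22 arrays, against 1965 to 55762 for 11 liver markers. The liver sum was highest at 94 dpc, with a median of 18315 and a range of 7886 to 55762. Its medians at 1, 28 and 188 dpn were 4063, 3041 and 3810. Albumin (ALB), 1 of the liver markers, had signals between 6.14 and 3173, so most of the highest liver sum came from other markers. The tissue is therefore called muscle-like. Bulk tissue was hybridised, so fewer cells of a type and less RNA per cell cannot be told apart in any value below. Signals up to 69.7, the level reached by control probe sets whose targets were absent, are called background. The 5' to 3' signal ratio of the GAPDH control probe sets lay between 0.140 and 0.332 on 4 arrays of 1 dpn (replicates 2 to 5) and between 0.731 and 1.26 on the other 18 arrays. Replicates 1 and 6 of 1 dpn, which had even 5' signal, are called the even arrays. The values of MDK and PTN that rest on 1 dpn are also given for them alone. Of 31 named pathway genes called in 1 dpn minus 94 dpc, 27 kept their call on the even arrays. Of 11 called in 28 dpn minus 1 dpn, 5 did. Outside the receptors, many of the named genes were picked for a call without overlap in 1 dpn minus 94 dpc. The even arrays were part of that choice, so the 27 kept calls are no independent check. No gene was picked by 28 dpn minus 1 dpn. With fewer arrays of 1 dpn, a call can also be lost through lower precision.

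MDK was bright before birth, close to background on the day after birth, brighter again at 4 weeks and dimmer in the oldest animals. By its brighter probe set (suffix s_at) the signals at 94 dpc ran from 3338 through a median of 3592 to 3724, with a mean of 3554 ± 158 (SD, n = 6). At 1 dpn they ran from 16.5 through a median of 115 to 169, with a mean of 100.4 ± 63.1 (SD, n = 6), and 4 of the 6 arrays were above background. All arrays of 94 dpc thus lay far above all arrays of 1 dpn, and the fetal animals were close to one another, with a coefficient of variation of 4.44%.

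At 28 dpn the MDK signals ran from 195 through a median of 629 to 703, with a mean of 557 ± 189 (SD, n = 6). The value of 195 was that of replicate 3, and the next lowest animal stood at 515. At 188 dpn the 4 arrays had 380.4, 114, 148 and 197, with a mean of 209.8 ± 119 (SD, n = 4). As shares of the mean at 94 dpc, the means at 1, 28 and 188 dpn were 2.82%, 15.7% and 5.90%. In order of level the ages stood as 94 dpc, 28 dpn, 188 dpn and 1 dpn. The arrays of 28 dpn overlapped neither those of 94 dpc nor those of 1 dpn, whereas the arrays of 188 dpn overlapped those of both 28 dpn and 1 dpn.

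On the log2(signal + 16) scale, MDK differed by -5.20 (SE 0.39) between 1 dpn and 94 dpc, later minus earlier. This was the most negative of the 6765 differences of named genes, each taken at its brightest probe set, and number 2 from the bottom among all 23999 probe sets. Between 28 dpn and 1 dpn the difference was 2.46 (SE 0.39), and between 188 dpn and 28 dpn it was -1.37 (SE 0.43). Relative to 94 dpc it was -2.74 (SE 0.39) at 28 dpn and -4.11 (SE 0.43) at 188 dpn. With only the even 1 dpn arrays the differences around that age were -4.59 (1 dpn minus 94 dpc) and 1.85 (28 dpn minus 1 dpn). Every array of 1 dpn lay below every array of 94 dpc and of 28 dpn. Any choice of 1 dpn arrays therefore gives these directions, and only the sizes are informative. By the brighter probe set these 2 arrays had 112 and 155, within the 16.5 to 169 of the 4 arrays with low 5' signal.

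The other MDK probe set (suffix at), which was designed from the same source sequence and is no independent measurement, followed the same course. Its signals ran from 2232 through 2582 to 2829 at 94 dpc, from 29.2 through 80.9 to 176 at 1 dpn and from 188 through 387 to 519 at 28 dpn, and were 277, 121, 101 and 161 at 188 dpn. The differences were -4.78 (SE 0.32) for 1 dpn minus 94 dpc, 2.03 (SE 0.32) for 28 dpn minus 1 dpn and -1.16 (SE 0.35) for 188 dpn minus 28 dpn. With only the even 1 dpn arrays the first was -3.96 and the second 1.20. By this probe set the even arrays had 124 and 176, both above the 29.2 to 114 of the 4 arrays with low 5' signal. Within an array the ratio of the brighter probe set to this one stayed between 1.30 and 1.53 at 94 dpc, but spread from 0.345 to 4.03 at 1 dpn, where both lay near background.

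**Figure D1:**
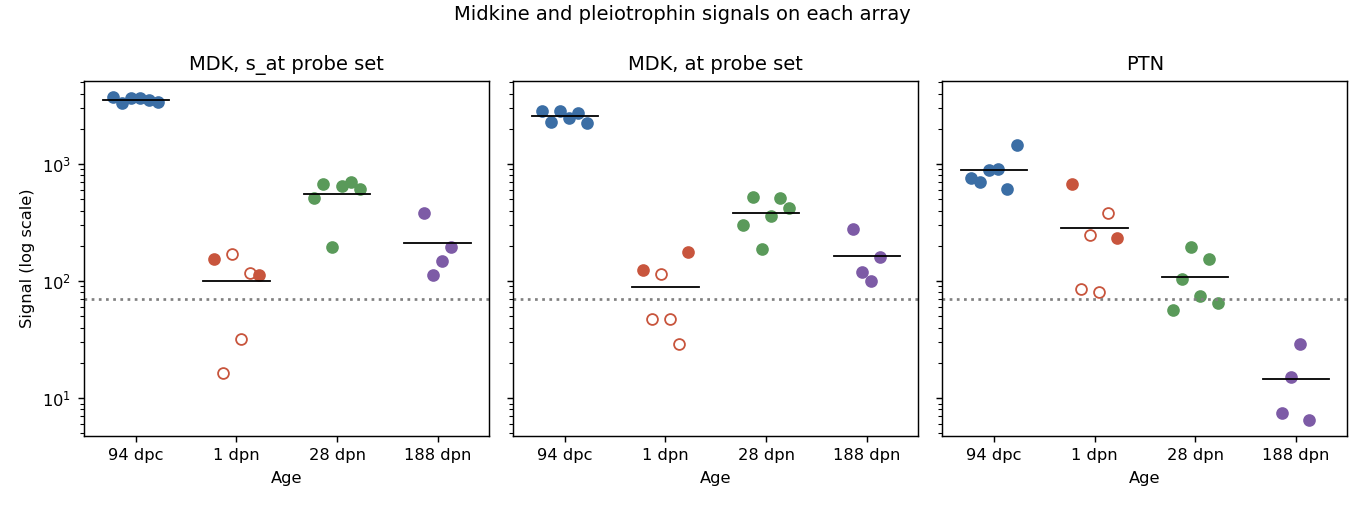
Signals of both MDK probe sets and of the measured PTN probe set on each array (log axis, linear signal as deposited) by age. Filled points are arrays with even GAPDH 5' signal, open points the 4 arrays of 1 dpn with low 5' signal, black bars are stage means and the dotted line is background at 69.7. MDK dips at 1 dpn and stands higher at 28 dpn, while PTN is lower at each later age and lies below background on all 4 arrays of 188 dpn.

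PTN took another course, with a lower mean at each later age. By its measured probe set the signals at 94 dpc ran from 617 through a median of 823 to 1452, with a mean of 886 ± 298 (SD, n = 6). At 1 dpn they ran from 81.2 through a median of 240.3 to 679, with a mean of 285 ± 224 (SD, n = 6). The ages overlapped by a single animal of 1 dpn, replicate 1 at 679, which stood above the lowest fetal animal at 617.

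At 28 dpn the PTN signals ran from 57.1 through a median of 89.6 to 197, with a mean of 109 ± 56.1 (SD, n = 6) and 4 of 6 arrays above background. At 188 dpn they were 7.40, 15.3, 28.9 and 6.55, so all 4 arrays were below background. The means at 1 and 28 dpn were 32.1% and 12.3% of the mean at 94 dpc. The arrays of 28 dpn overlapped those of 1 dpn but not those of 94 dpc, and the arrays of 188 dpn overlapped none of the other ages.

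On the log2(signal + 16) scale PTN differed by -1.87 (SE 0.40) for 1 dpn minus 94 dpc and by -1.04 (SE 0.40) for 28 dpn minus 1 dpn. Relative to 94 dpc the difference at 28 dpn was -2.91 (SE 0.40), number 16 from the bottom of the 6765 named genes. Because all values at 188 dpn lay below background, PTN there is stated only as at least 10.1-fold lower than at 94 dpc and at least 1.34-fold lower than at 28 dpn, bounds taken against background. The first drop was smaller and the second larger with only the even 1 dpn arrays, at -1.06 for 1 dpn minus 94 dpc and -1.85 for 28 dpn minus 1 dpn. Those 2 arrays had PTN signals of 232 and 679, against 81.2 to 382 on the 4 arrays with low 5' signal.

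The remaining PTN probe set was below background on 21 of the 22 arrays, with 1 array of 28 dpn (replicate 1) at 109.2. It gives no level for PTN at any age, and no difference is drawn from it.

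The ages differed in which of the 2 genes was above background, as the plot of MDK against PTN shows. At 94 dpc both genes were bright. At 1 dpn PTN was above background on all 6 arrays, while MDK was above it on 4 by its brighter probe set and on 3 by the other. At 28 dpn MDK was above background on all 6 arrays and PTN on 4, and at 188 dpn MDK was above it on all 4 arrays and PTN on 0. Within ages, the deviations of MDK and PTN from their stage means had a Pearson r of 0.35 and a Spearman rho of 0.23 over the 22 arrays (permutation p = 0.260 and 0.373 with 100000 two-sided permutations within stages, 0.745 for both after Benjamini-Hochberg adjustment over 3 relations). Without the 2 arrays farthest from the median on the MDK axis r was 0.45, and without the 6 arrays of 1 dpn it was -0.49. The deviations of MDK and of PTN had an r of 0.14 and 0.27 with the GAPDH 5' to 3' log ratio (permutation p = 0.770 and 0.497, adjusted 0.770 and 0.745), with rho at 0.10 and 0.12. Without replicates 1 and 4 of 1 dpn, the arrays farthest from the median on the PTN axis, the r of PTN with the ratio was -0.14, so it rests on those arrays. Without replicate 2 of 1 dpn and replicate 3 of 28 dpn, the arrays farthest from the median on the MDK axis, the r of MDK with the ratio was 0.18, and without replicate 1 of 1 dpn alone it was -0.037. None of the 3 within-age relations, which took MDK at its brighter probe set alone, passed its test.

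**Figure D2:**
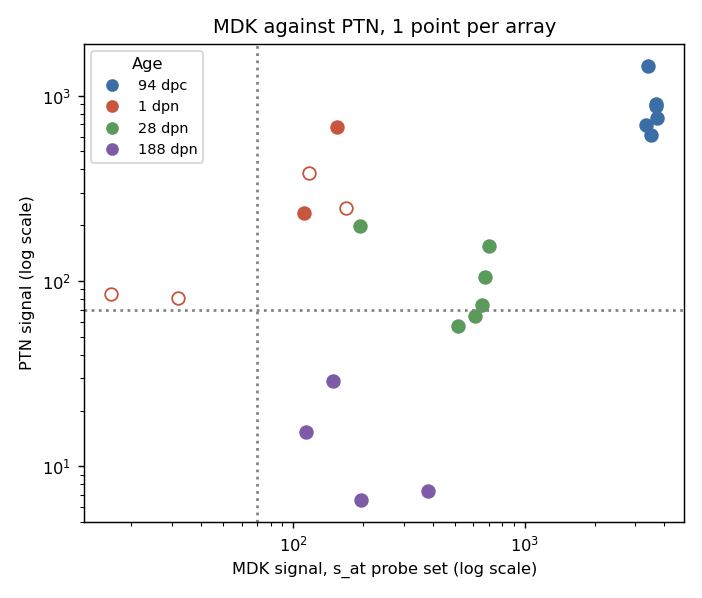
Signal of PTN (vertical, log axis) against signal of the brighter MDK probe set (horizontal, log axis), 1 point per array and 1 colour per age. Open points are the 4 arrays of 1 dpn with low 5' signal, and the dotted lines mark background at 69.7. Arrays of 94 dpc lie at the top right, those of 28 dpn at intermediate MDK signals and those of 188 dpn below the background of PTN.

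Among the receptors and binding partners, 10 of 21 listed genes were measured under their symbol. PTPRZ1, ALK, LRP1 and the neural syndecan SDC3, among others, were not analysed here. In the limma fit over all probe sets (Benjamini-Hochberg adjusted p under 0.05), 6 of the 10 were lower and 0 higher at 1 dpn than at 94 dpc, where 23.9% of all named genes were lower and 17.4% higher. The median log2 difference of the 10 was -1.01, against -0.06 over all named genes. At 188 dpn 4 were lower and 1 higher than at 94 dpc, against 27.1% and 18.5% of all named genes, with a median of -0.32 against -0.08.

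The syndecans are cell-surface proteoglycans that carry heparan sulfate chains and bind both factors. SDC1 was lower at 1 dpn (mean 158, range 108 to 219) than at 94 dpc (mean 692, range 219 to 1065), by log2 -1.92 (SE 0.38, adjusted p = 0.000487). It stood at 216, 48.2, 164 and 283 at 188 dpn, below the fetal mean of 692 in all 4 oldest animals (log2 -1.92 against 94 dpc, SE 0.43, adjusted p = 0.00103). Its 4 probe sets disagreed, since 2 of the dimmer ones gave log2 -0.05 and -0.06 for 1 dpn minus 94 dpc and the other gave -1.49. SDC2 was also lower at 1 dpn, with a mean of 818 against 1465 at 94 dpc (log2 -0.96, SE 0.26, adjusted p = 0.00603). At 188 dpn it stood at 612, 373, 403 and 596, all below the fetal range of 1230 to 1672 (log2 -1.56, SE 0.29, adjusted p = 0.000157). SDC4 was not called in any comparison and ranged from 45.2 to 760.4 at 1 dpn.

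Integrins are adhesion receptors made of an alpha and a beta chain, and the pair of ITGAV and ITGB3 has been described as a pleiotrophin receptor on human endothelial cells. ITGB3 was lower at 1 dpn, with a mean of 214 against 628 at 94 dpc (log2 -1.59, SE 0.28, adjusted p = 0.000151). At 188 dpn it had 74.8, 64.4, 31.0 and 76.1, against a range of 460.2 to 717 at 94 dpc, so the oldest animals were near background (log2 -3.09, SE 0.31, adjusted p = 7.73e-08). ITGAV had a mean of 155 at 1 dpn, against 342 at 94 dpc (log2 -1.06, SE 0.22, adjusted p = 0.000617). It stood at a mean of 412 at 188 dpn and did not pass the test there against 94 dpc (log2 0.29, SE 0.24). ITGB1, the chain shared by many integrins, had means of 4783, 2187, 2805 and 3052 from the youngest to the oldest age, lower than at 94 dpc at all 3 later ages (log2 -1.14, -0.77 and -0.65). Centred on array medians, its call at 188 dpn was lost (log2 -0.38, adjusted p = 0.0663). ITGA6 lay at or near background, with a highest signal of 103.

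LRP6, better known as a co-receptor of Wnt proteins, had its means in the same order of ages as MDK, as did SDC1. Its means were 325, 96.4, 269 and 262 from 94 dpc to 188 dpn. It was lower at 1 dpn than at 94 dpc (log2 -1.77, SE 0.30, adjusted p = 9.98e-05) and higher at 28 dpn than at 1 dpn (log2 1.52, SE 0.30, adjusted p = 0.000827). At 28 and 188 dpn it did not pass the test against 94 dpc. LRP8 had means of 35.5, 71.5, 25.8 and 31.8 from the youngest to the oldest age, near or below background. The endocytic receptor LRP2 was called higher at 188 dpn than at 94 dpc (log2 1.80, SE 0.67, adjusted p = 0.0408), with signals of 271, 74.6, 36.9 and 1820 at 188 dpn, against 20.0 to 71.0 at 94 dpc. Without replicate 4 of 188 dpn the difference was 0.78 (adjusted p = 0.282). The call was also lost without replicate 1 of 188 dpn and without each of replicates 1, 2, 3, 5 and 6 of 94 dpc.

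**Figure D3:**
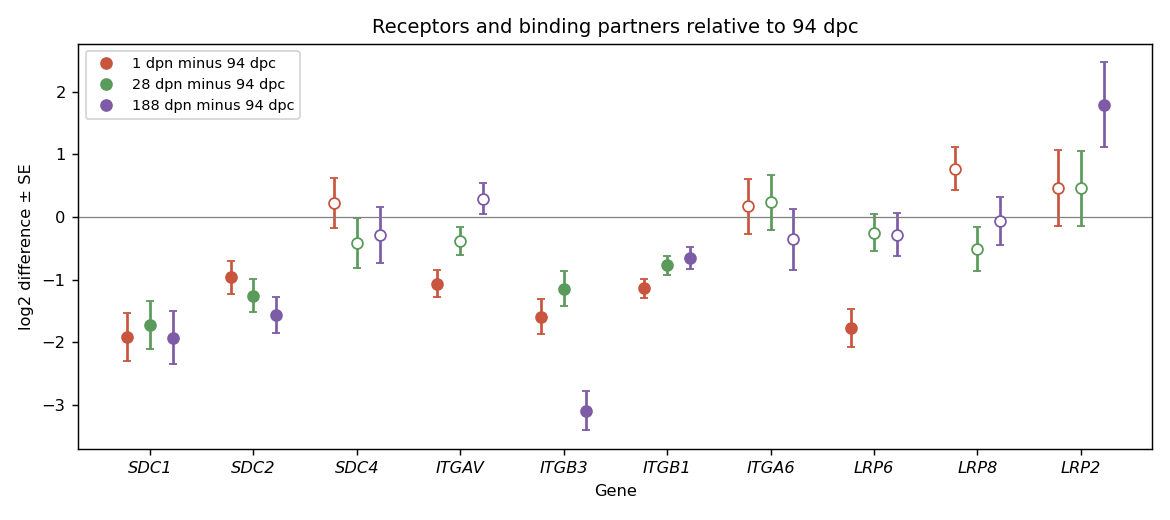
Fitted log2 differences of the 10 measured receptors and binding partners relative to 94 dpc (vertical axis, error bars are standard errors), with 1 dpn, 28 dpn and 188 dpn from left to right for each gene. Filled points passed the limma test at an adjusted p under 0.05 and open points did not. ITGB3 at 188 dpn is the lowest point at -3.09, and LRP6 is low at 1 dpn alone.

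Proteoglycans with sulfated chains hold both factors in the matrix, and 9 of 22 listed genes were measured. Of these, 4 were lower and 0 higher at 1 dpn than at 94 dpc, and the same 4 were lower at 188 dpn than at 94 dpc, against 23.9% and 27.1% of all named genes. The chondroitin sulfate proteoglycan versican (VCAN), a known ligand of midkine, had a mean of 145 at 1 dpn, against 1893 at 94 dpc (log2 -3.67, SE 0.28, adjusted p = 6.65e-09). At 188 dpn its signals were 214, 95.7, 53.2 and 163, against 1705 to 2217 at 94 dpc (log2 -3.83, SE 0.31, adjusted p = 3.36e-09). Both of its dimmest probe sets, with mean signals of 21.1 and 23.7, did not pass the test. The small leucine-rich proteoglycans decorin (DCN), lumican (LUM) and biglycan (BGN) were lower at 1 dpn by log2 -1.08, -1.05 and -1.07, and at 188 dpn by -1.16, -1.52 and -2.67. BGN had signals of 423 to 2875 at 1 dpn, against 2190.1 to 5518 at 94 dpc, and its call at 1 dpn was lost with the arrays centred on their medians (log2 -0.81, adjusted p = 0.0699) and without replicate 1 or 6 of 94 dpc (adjusted p = 0.0506 and 0.0566).

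Of the enzymes that build and sulfate these chains, 15 of 49 were measured. As many as 10 were lower (66.7%) and 0 higher at 1 dpn than at 94 dpc, against 23.9% and 17.4% of all named genes. At 188 dpn 10 were lower (66.7%) and 1 higher (6.67%) than at 94 dpc, against 27.1% and 18.5%. The 1 higher gene, the glucuronyltransferase B3GAT3, is named because its count is small, and its call was lost on leaving out any 1 of 17 of the 22 arrays, those of 188 dpn among them. The median log2 difference was -0.71 at 1 dpn and -1.42 at 188 dpn, against -0.06 and -0.08 over all named genes. The count at 1 dpn depended on the scaling of the arrays, with 5 lower after quantile normalization and 3 lower with each array centred on its median, and it was 6 with the GAPDH ratio as a covariate.

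PAPSS1, which makes the activated sulfate donor, had a mean of 478 at 1 dpn, against 1158 at 94 dpc (log2 -1.28, SE 0.16, adjusted p = 2.77e-06). Its other probe set, whose mean signal lay below background, gave log2 0.26, and the call was lost with the mean of both (log2 -0.51, adjusted p = 0.0719). EXT1, which polymerises heparan sulfate, had 679 against 1638 in the same comparison (log2 -1.27, SE 0.16, adjusted p = 4.06e-06). The uronyl sulfotransferase UST had 117 against 276 (log2 -1.14, SE 0.19, adjusted p = 9.81e-05) and was higher again at 28 dpn than at 1 dpn, with means of 223 and 117 (log2 0.82, SE 0.19, adjusted p = 0.00379), a call that did not hold with replicates 1 and 6 of 1 dpn alone (log2 0.69, adjusted p = 0.0863) or with the GAPDH covariate (adjusted p = 0.0539). At 188 dpn UST had 311, 193, 360 and 271 and did not pass the test against 94 dpc (log2 0.02, SE 0.22). CHSY1, which polymerises chondroitin, had a mean of 486 at 188 dpn, against 2417 at 94 dpc (log2 -2.32, SE 0.24, adjusted p = 7.96e-08). The dermatan sulfotransferase CHST14 had 418 against 2235 (log2 -2.43, SE 0.22, adjusted p = 1.71e-08). The dermatan epimerase DSE had 40.0, 133, 27.3 and 147 at 188 dpn, against 469 to 862 at 94 dpc (log2 -2.99, SE 0.33, adjusted p = 1.89e-07). HS2ST1, a heparan sulfate sulfotransferase, had 225 against 709 (log2 -1.58, SE 0.21, adjusted p = 2.41e-06). At 1 dpn the calls of DSE and HS2ST1 were lost on the even arrays (adjusted p = 0.267 and 0.0800).

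The list of other heparin-binding growth factors also held relatives and binding proteins such as FST, and heparin binding was not checked for each member. Of its 30 genes 18 were measured. At 1 dpn 7 were lower and 0 higher, and at 188 dpn 4 were lower and 3 higher, than at 94 dpc. These are 38.9% lower at 1 dpn, and 22.2% lower and 16.7% higher at 188 dpn, against 23.9%, 27.1% and 18.5% of all named genes. At 1 dpn the count lower was 4 without replicate 6 of 1 dpn and 4 with centred arrays, which also gave 2 higher. The transforming growth factors TGFB2 and TGFB3 had means of 135 and 180.0 at 1 dpn, against 649 and 787 at 94 dpc (log2 -2.20 and -2.07, adjusted p = 2.93e-06 and 4.84e-06). At 188 dpn their courses parted. TGFB2 stood at 655, 751, 213 and 326 there and did not pass the test against 94 dpc (log2 -0.56, SE 0.31), whereas TGFB3 stood at 87.2, 173, 30.6 and 108 (log2 -2.94, SE 0.30, adjusted p = 9.59e-08). A TGFB2 probe set of similar brightness gave log2 -0.24 for 1 dpn minus 94 dpc and did not pass. TGFB1 and the chemokine CXCL12 were lower at 1 dpn by log2 -0.75 and -1.11, and both calls depended on the setting. The TGFB1 call was lost after quantile normalization (log2 -0.40, adjusted p = 0.0673). The CXCL12 call was lost with centred arrays (adjusted p = 0.0625) and without replicate 1 or 6 of 1 dpn (adjusted p = 0.051 and 0.0582), while both of these arrays alone gave log2 -2.50.

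Follistatin (FST), which binds activins and myostatin, had 603, 408, 403 and 341 at 188 dpn, against 2042 to 2996 at 94 dpc (log2 -2.52, SE 0.24, adjusted p = 3.54e-08). HBEGF, a ligand of the epidermal growth factor receptor, went the opposite way, with 1212, 1239, 494 and 1037 at 188 dpn, against 139 to 207 at 94 dpc (log2 2.36, SE 0.40, adjusted p = 6.16e-05). The vascular growth factor VEGFA was higher at 188 dpn by its brightest probe set (mean 9693, against 2871 at 94 dpc, log2 1.74, SE 0.22, adjusted p = 1.85e-06). A second VEGFA probe set was lower in that comparison (log2 -1.07, adjusted p = 0.00265), so the direction depends on the probe set.

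Genes of retinoid handling and response were included because retinoic acid is a known inducer of midkine, and 13 of 24 were measured. At 1 dpn 4 were lower (30.8%) and 0 higher than at 94 dpc, against 23.9% and 17.4% of all named genes. At 188 dpn 6 were lower (46.2%) and 2 higher (15.4%) than at 94 dpc, against 27.1% and 18.5%. At 28 dpn 4 were higher (30.8%) and 0 lower than at 1 dpn, against 15.1% and 12.9%. With the even 1 dpn arrays alone, 2 retinoid genes were higher and 1 lower in that step. CRABP2, which carries retinoic acid to the nucleus, had a mean of 137 at 1 dpn, against 665 at 94 dpc (log2 -2.57, SE 0.44, adjusted p = 0.000113), and stayed at means of 86.6 and 85.5 at 28 and 188 dpn. RARRES1, named for its response to retinoid receptors, had all arrays of 28 and 188 dpn below background and was at least 3.34-fold lower at both ages than at 94 dpc. RARRES2, the precursor of chemerin, had means of 2464, 803, 2048 and 2232 from 94 dpc to 188 dpn. It was lower at 1 dpn than at 94 dpc (log2 -1.63, SE 0.37, adjusted p = 0.00146) and higher at 28 dpn than at 1 dpn (log2 1.34, SE 0.37, adjusted p = 0.0106). Neither call held with replicates 1 and 6 of 1 dpn alone, where the differences were -1.53 (adjusted p = 0.0559) and 1.23 (adjusted p = 0.153). The mean at 188 dpn covers signals of 1691, 540, 844 and 5854, of which the last, in replicate 4, was the animal with the high LRP2 signal.

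The retinol-binding gene RBP7 was below background on every array of 188 dpn. Its signals were 5.80, 5.76, 4.77 and 6.42 at 188 dpn, against 359 to 476 at 94 dpc, and it was at least 5.28-fold lower (adjusted p = 4.93e-07). The retinoid receptor RXRG had 554, 542, 630 and 406 at 188 dpn, against 47.5 to 114 at 94 dpc (log2 2.49, SE 0.37, adjusted p = 1.0e-05). It did not overlap its fetal range in any of the oldest animals.

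Downstream signalling genes were called in both directions. Of 28 listed genes 16 were measured, with 5 lower and 4 higher at 1 dpn, and 6 lower and 2 higher at 188 dpn, than at 94 dpc. The shares lower were 31.2% and 37.5%, against 23.9% and 27.1% of all named genes, and the shares higher 25.0% and 12.5%, against 17.4% and 18.5%, and the median log2 differences were -0.13 and -0.08. The even arrays gave 2 higher at 1 dpn, and leaving out any of 8 single arrays gave 1 higher at 188 dpn (replicates 1, 2, 3 and 5 of 94 dpc, and each of 188 dpn). The kinase FYN had a mean of 162 at 188 dpn, against 796 at 94 dpc (log2 -2.20, SE 0.21, adjusted p = 3.14e-08). The cytoskeletal protein ADD1, a relative of the adducin that the pleiotrophin receptor phosphatase acts on, was lower by log2 -1.27 (SE 0.16, adjusted p = 9.75e-07), and the adaptor SHC1 was lower at 1 dpn by log2 -0.99 (SE 0.18), or -0.62 on the even arrays. The kinase MAP2K2 was higher at all 3 later ages than at 94 dpc (log2 1.14, 1.25 and 1.69). The Notch target HES1 was higher at 1 dpn (mean 1617) than at 94 dpc (mean 904; log2 0.81, adjusted p = 0.00205), a call lost on the even arrays (log2 0.39, adjusted p = 0.258). At 188 dpn it was lower (mean 289, log2 -1.59). The adaptor GRB2 was higher at 1 dpn by its brightest probe set (log2 0.76) and lower by another (log2 -0.75).

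Over all 6 lists together, 81 of 174 genes were measured. At 1 dpn 36 were lower and 4 higher than at 94 dpc (44.4% and 4.94%, against 23.9% and 17.4% of all named genes). The even arrays gave 35 lower and 5 higher. At 28 dpn 7 were lower and 11 higher than at 1 dpn (8.64% and 13.6%), below the 12.9% and 15.1% of all named genes. At 188 dpn 13 were lower and 3 higher than at 28 dpn, where 11.0% and 5.01% of all named genes were called. Without replicate 2 of 188 dpn 1 was higher in that step, and without its replicate 3 the count lower was 8. At 28 dpn 31 were lower and 7 higher than at 94 dpc, against 20.9% and 17.8% of all named genes. At 188 dpn 34 were lower and 9 higher than at 94 dpc (42.0% and 11.1%), against 27.1% and 18.5%. These comparisons share the arrays of each age. The share of list calls in the higher direction moved with scaling. It was 10.0% for 1 dpn minus 94 dpc, 61.1% for 28 dpn minus 1 dpn, 18.8% for 188 dpn minus 28 dpn and 20.9% for 188 dpn minus 94 dpc as deposited. With each array centred on its median it was 29.4%, 32.0%, 52.9% and 32.6% in the same order, and after quantile normalization 17.1%, 40.0%, 26.7% and 26.8%. Centring shifted the median of all probe sets by log2 0.26, -0.20, 0.20 and 0.27, and quantile normalization by 0.13, -0.14, 0.14 and 0.13.

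**Figure D4:**
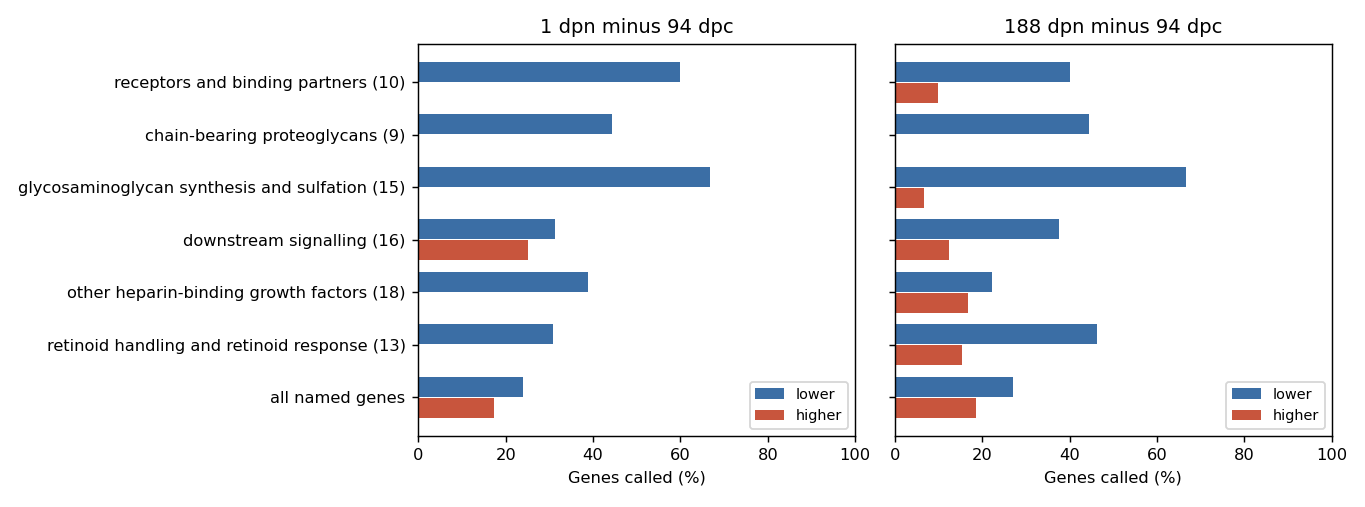
Share of measured genes called lower (blue) and higher (red) in each of the 6 lists, with the number measured in parentheses, and in all 6765 named genes, for 1 dpn minus 94 dpc (left) and 188 dpn minus 94 dpc (right). The glycosaminoglycan enzymes had 66.7% of their genes lower in both comparisons, against 23.9% and 27.1% of all named genes.

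The genes whose course over the 22 arrays was most like that of MDK were picked by Pearson r among 6089 named genes. The 8 highest were the survivin gene BIRC5 (r = 0.957), the amyloid precursor APP (0.944), the cyclin-dependent kinase subunit CKS1B (0.939), the actin-binding caldesmon CALD1 (0.924), the mitotic kinase AURKB (0.917), the septin SEPT4 (0.917), RACGAP1 (0.914) and MDFIC (0.912). Except for AURKB, whose means at 1 and 188 dpn were close, they had their lowest mean at 1 dpn. AURKB, for example, had means of 452, 55.4, 200 and 54.1 from 94 dpc to 188 dpn, where MDK had 3554, 100.4, 557 and 209.8. The most opposite genes were ASB8 (r = -0.951), RPS28 (-0.941), COPS8 (-0.932) and LOC100157391 (-0.928), all brightest at 1 dpn.

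For PTN the 8 highest were the chromatin protein HMGB2 (r = 0.961), ZNF395 (0.946), ASAP3 (0.945), the cyclin CCND2 (0.943), the septin SEPT2 (0.940), RASL11B (0.938), the imprinted gene PLAGL1 (0.931) and the nuclear pore subunit NUP133 (0.927). Each had its highest mean at 94 dpc and a lower one at every later age, and CCND2 had 3829, 1634, 873 and 201. The most opposite were ALKBH5 (-0.941), PCMT1 (-0.931), FAM162A (-0.923) and HMCES (-0.916), which were brighter at each later age. The MDK and PTN lists shared 0 of their 8 genes. The arrays share their age, so r describes the course over ages. Without the 6 arrays of 1 dpn, 0 of the 8 genes of MDK and 2 of the 8 of PTN were still among the most alike.

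**Figure D5:**
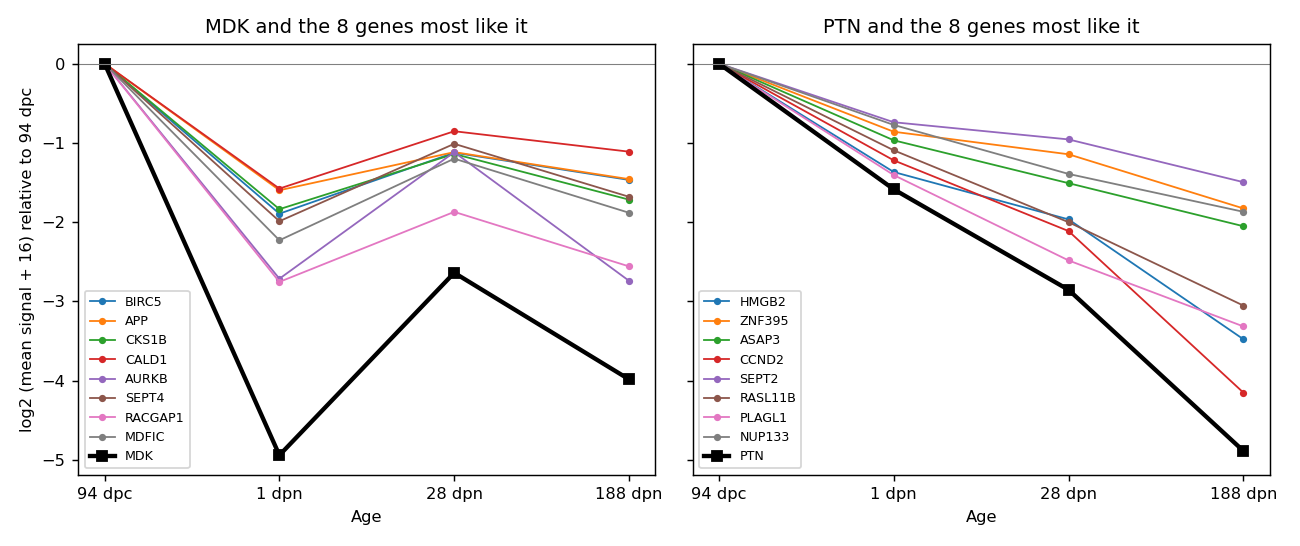
Log2 of the stage mean signal plus 16, relative to 94 dpc (vertical axis), by age for MDK (left, black squares) and PTN (right, black squares) and the 8 genes most like each. The MDK group dips at 1 dpn and stands higher at 28 dpn, and the PTN group is lower at each later age.

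Markers of other cell types also differed between the ages, and are set here against the shares of all named genes. These shares were 23.9% lower and 17.4% higher in 1 dpn minus 94 dpc, and 15.1% higher in 28 dpn minus 1 dpn. They were 11.0% lower in 188 dpn minus 28 dpn, and 27.1% lower and 18.5% higher in 188 dpn minus 94 dpc. All 5 measured markers of proliferating cells were lower at 1 dpn than at 94 dpc. Of these, 4 were higher at 28 dpn than at 1 dpn and 3 were lower at 188 dpn than at 28 dpn. MDK had the same directions in these comparisons, and so had most endothelial calls given below. No test compared 188 dpn with 1 dpn, where the sums of the proliferation markers overlapped. Their summed signal ran between 4322 and 5344 at 94 dpc, 366 and 1151 at 1 dpn, 797 and 2265 at 28 dpn, and 637 and 1066 at 188 dpn. AURKB is in this list and among the genes most like MDK. Of 7 measured endothelial markers 6 were lower at 1 dpn than at 94 dpc, 5 higher at 28 dpn than at 1 dpn and 3 lower at 188 dpn than at 28 dpn. The endothelial sum ran between 11584 and 14346, 3516 and 5234, 6692 and 9864, and 2386 and 3667 at the 4 ages. Of 7 measured fibroblast markers, which include DCN and LUM, 5 were lower at 1 dpn than at 94 dpc and 5 at 188 dpn than at 94 dpc, and their sum ran between 37007 and 48525, 15913 and 27732, 17657 and 32176, and 14348 and 22017. The 3 measured markers of myoblasts and satellite cells were MYF5, MYOD1 and MYF6. All 3 were lower at 1 dpn, and 2 were lower and 1 higher at 188 dpn, than at 94 dpc. Their sum ran between 3534 and 4551, 1474 and 3283, 1622 and 3050, and 4819 and 8018. The high sum at 188 dpn therefore rests on the 1 higher gene. Pericyte and smooth muscle markers had 1 of 4 lower at 1 dpn than at 94 dpc, with sums of 22810 to 30687, 17235 to 32688, 17959 to 25323 and 7239 to 11622 at the 4 ages, and Schwann cell and nerve markers had 1 of 3 lower, with sums of 1598 to 2495, 758 to 2407, 1305 to 1906 and 686 to 1153. Adipocyte markers took another course, with 2 of 4 higher and 0 lower at 1 dpn than at 94 dpc and sums of 2818 to 6052, 7771 to 15431, 4438 to 9621 and 2228 to 4083. Macrophage markers had 1 of 4 lower in that comparison (sums of 2007 to 2503, 1025 to 2904, 2083 to 7771 and 1121 to 3362), erythroid markers 1 of 3 (953 to 1617, 538 to 1670, 784 to 2502 and 510 to 669) and tendon markers 1 of 2 (662 to 2724, 25.5 to 3091, 63.9 to 3061 and 49.3 to 136). Both measured pancreas markers were not called there, with sums of 2803 to 13042, 3570 to 16912, 6019 to 10450 and 11504 to 17561. Liver markers, whose sums are given above, had 3 of 11 lower (27.3%) and 1 higher (9.09%) at 1 dpn than at 94 dpc, with a median log2 difference of -1.24. No marker in these lists was below background on all arrays, and the part of these cells in the signals of MDK and PTN was not tested.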

How the data were processed

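The values used are the deposited intensity values of 22 Affymetrix porcine arrays, 1 linear signal per probe set and array, from cRNA of 0.5 µg RNA. GCOS 1.1.1 is the software that the submitters' processing notes name. After trimming 2% at each end the mean was 500 on every array, so the deposited values were already scaled to a common mean, and log2(signal + 16) of the deposited values was used without further normalization. Such differences understate changes of dim genes. The table lists 24123 probe sets, of which 124 are controls and were not tested. Of the other 23999, 10069 carried 1 symbol (6765 genes), 198 several and 13732 none. The table holds no detection calls, so background was the 95th percentile of 23 control probe sets with absent targets (69.7). The number of arrays limits precision.

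Ages were fitted in limma 3.58.1 (R 4.3.3) with 1 mean per age, and p-values were adjusted by Benjamini-Hochberg over all 23999 probe sets in each of 5 comparisons. Genes stand at their brightest probe set by mean over all arrays. Where all values of the dimmer age were below background, the fold is a bound against background. Text names every measured receptor, of each other list up to 4 called genes without overlap between ages by size of difference in 1 dpn minus 94 dpc and in 188 dpn minus 94 dpc, and the 8 most and 4 least alike genes. MDK, PTN, the 6 pathway lists and the marker lists were chosen with earlier results of these data known. The fit was tested on simulated data. Alternatives changed scaling, pseudocount, arrays, covariate, filter, variances and probe sets.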

Additional observations from a re-analysis of the deposited data

Results flagged for a closer look

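A single array stood apart from the others of its age in 21 of 168 tested combinations of gene and age, where chance flags about 1 in 20. For MDK this was replicate 3 of 28 dpn, at 195 with the nearest animal at 515. The same animal had the highest PTN signal of its age, at 197.

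Among receptors, LRP2 was low on replicate 5 of 94 dpc (20.0) and high on replicate 1 of 28 dpn (146.7). LRP6 was low on replicate 4 of 1 dpn (11.6), ITGB3 on replicate 2 of 94 dpc (460.2) and SDC4 on replicate 5 of 1 dpn (45.2), while SDC4 was high on replicate 4 of 188 dpn (315).

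Replicate 1 of 1 dpn was the lowest array of its age for BGN (423), CHST14 (858), TGFB1 (76.3) and RBP7 (10.0). CHSY1 was low on replicate 3 of 28 dpn (774), CXCL12 on replicate 1 of 94 dpc (2802), VEGFA on replicate 6 of 1 dpn (1494) and on replicate 4 of 28 dpn (5162), and RARRES1 on replicate 4 of 28 dpn (16.8). High arrays were those of UST on replicate 6 of 94 dpc (359), CHST14 on replicate 2 of 28 dpn (1224), GRB2 and HES1 on replicate 4 of 94 dpc (1920 and 1273), and CRABP2 on replicate 6 of 94 dpc (1042).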

How the results depend on the processing

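The differences of MDK and PTN kept their direction under all alternatives run. Most alternatives left out a single array, and an array outside both ages compared cannot change a difference. The number of values close to the reported ones is therefore no measure of stability. Within 1 SD of the reported differences lay 397 values, and 8 lay beyond. Those 8 were PTN with a pseudocount of 1 against values below background (-2.90 for 188 dpn minus 28 dpn, -6.01 for 188 dpn minus 94 dpc), the even arrays of 1 dpn (-3.96 and 1.20 for the dimmer MDK probe set, -1.06 and -1.85 for PTN, each around 1 dpn) and the GAPDH covariate (-4.02 and 1.33 for the dimmer MDK probe set). Counts over the 6 lists moved by over 1.5 times in 14 of 320 cases. With centred arrays they were 10 higher (1 dpn minus 94 dpc), 17 lower (28 dpn minus 1 dpn), 9 higher and 8 lower (188 dpn minus 28 dpn) and 14 higher (188 dpn minus 94 dpc). The count lower for 28 dpn minus 1 dpn was 12 after quantile normalization and 4 with only these ages fitted. The count higher for 188 dpn minus 28 dpn was 6 on even arrays, 7 with the covariate, 6 for the brighter probe sets and 5 with trended variances.

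Leaving out each array in turn gave 5 to 13 lower for 28 dpn minus 1 dpn (13 without 1 dpn replicate 1), 1 to 4 higher (1 without 188 dpn replicate 2) and 8 to 17 lower (8 without 188 dpn replicate 3) for 188 dpn minus 28 dpn. It gave r of -0.037 to 0.29 for MDK and -0.072 to 0.52 for PTN with the GAPDH ratio. Signal over background and the number of arrays limit all values.

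Within-age r reversed without the 6 arrays of 1 dpn to -0.49 (MDK with PTN) and -0.11 (MDK with the GAPDH ratio), and without 1 dpn replicate 1 to -0.037 and -0.072 for MDK and PTN with that ratio. Of the genes most like MDK, 2, 4 and 0 of 8 were shared by Spearman rho, quantile normalization and without 1 dpn, and of those least like it 1, 3 and 0 of 4. For PTN these were 5, 6 and 2 of 8 and 3, 2 and 0 of 4. Single named genes kept their call in 3363 cases and lost it in 121, with 0 reversed. The cause was not tested. Outside the receptors these genes were named for calls in the same arrays, so the kept calls are no independent check. The labels do not name the gilt of each animal, so no analysis paired or blocked by litter was possible.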
